A study of Montastraea cavernosa with 311 samples.

Results

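The isogroups of the coral Montastraea cavernosa whose lookup names speak of DNA replication, DNA repair, photolyases, cyclins or cell division were described across sites, depths and the arms of a transplant experiment. An isogroup is a set of transcript models treated as 1 gene. Members were found by words in the name (DNA repair, excision repair, mismatch repair, DNA polymerase, DNA replication, minichromosome, replication factor, cyclin, cell division, photolyase, cryptochrome or DNA ligase, with no kinase), and 2 further isogroups were left out by the rule. The count table held 17901 host isogroups among 31276 in all, and the rule found 94 of them with a name that belongs to the process: 26 in DNA repair, 19 division cycle proteins, 17 cyclins and partners, 15 in the replicative helicase and its licensing, 11 polymerases, clamp proteins and ligase, and 6 photolyases and cryptochromes. A further 22 in the count table entered by letters alone, such as 8 reverse transcriptases (RNA-dependent DNA polymerases) and heme oxygenase (a heme decycling enzyme), and they have a paragraph of their own. Counts of members called include them unless process members are named. Another 40 isogroups with matching names were in the lookup table only and have no counts.

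The study sequenced coral colonies with their dominant algal symbiont, Cladocopium, by a 3′ tag method. Wild colonies came from 2 depth zones, shallow and mesophotic (the dim zone under the shallow reef), at the 4 sites labelled WFGB, EFGB, PRTER and CBC, which the series title places in the Gulf of Mexico and Belize. At WFGB and EFGB a transplant experiment had 3 arms: transplants, mesophotic controls and shallow controls, sampled at times labelled 6 and 12 with no unit. Wild-colony libraries of the same colonies, found by the colony tag in the titles, served as their baseline and are also counted among the wild colonies. The baseline libraries of the transplants were labelled mesophotic. Titles of all time 12 libraries carried the tag IX-16. At time 6 every control carried V-16, as did most transplants, but 2 of the 8 transplants, both at EFGB, carried IX-16. The baseline libraries of these 2 colonies carried V-16. Time and title tag thus largely went together, and their separate parts were not tested. The labels give no depth in metres, no age and no colony size. Libraries with at least 20000 host counts were kept. For mesophotic and shallow colonies in turn, 22 and 36 remained at CBC, 41 and 31 at PRTER, 21 and 39 at EFGB, and 28 and 35 at WFGB. The experiment kept 7 baseline, 8 time 6 and 5 time 12 libraries of transplants, 8, 7 and 6 of mesophotic controls, and 9, 10 and 9 of shallow controls.

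A cell copies its genome once per division: the MCM helicase is loaded at origins and opens the helix, replication factor C loads the sliding clamp PCNA, and DNA polymerases and ligase make and join the new strands. Cyclins switch on the kinases that drive these steps, cyclin D at the entry from G1 and cyclins E and A later, while CDC20, CDC34 and the anaphase-promoting complex destroy regulators to let the cycle go on. Damage is removed by excision repair, in which glycosylases and APEX1 take out single altered bases and the ERCC proteins cut out bulky lesions such as those made by ultraviolet light. Photolyases reverse ultraviolet lesions directly with visible light, and the related cryptochromes sense light and take part in daily clocks. In shallow reef corals light and ultraviolet light reach both the animal and its symbionts, and less of both reaches the mesophotic zone.

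Total counts ran from 2649 to 1211111 per library, with a median of 140660. The median number of host isogroups detected (with at least 1 count) differed between groups, from 1244.5 in mesophotic colonies at CBC to 4449 in shallow colonies at WFGB, and at EFGB it was 1782 in mesophotic and 3570 in shallow colonies. Median host counts ran the other way in these groups. They were 188602.5 in mesophotic colonies at CBC and 53608 in shallow colonies at WFGB. At EFGB they were 194521 in mesophotic and 62803 in shallow colonies. Shallow colonies at WFGB and EFGB included 22 and 25 libraries whose titles carry the tag X-14, which no mesophotic library carried. Barcode runs are not in the labels and were inferred from the order of library numbers. A new run began where a barcode repeated, and CBC was set as 1 run. At EFGB a run held as few as 2 mesophotic or 1 shallow library. CBC and PRTER each had inferred runs of their own, so that site and run cannot be told apart there. These are whole-tissue samples, so a lower level of a member in fewer dividing cells and a lower level per cell cannot be told apart. Levels are given as counts scaled to 1000000 host counts of the library (CPM), as lowest, median and highest over a group. Tags sit at the 3′ end, and levels of different isogroups are not compared per length.

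Process members were rare transcripts. Over the kept libraries they held 0.394% of host counts, and a single isogroup, the cyclin D member, held 45.7% of that. Of the 94 process members, 28 were detected in fewer than 10 kept libraries and 17 in 100 or more. Over all members and all libraries, 8 members had 1 count in all, and in 42 members 1 library held at least as many counts as all others together. The number of process members detected in a library followed the number of host isogroups detected, with Pearson's r of 0.954 and Spearman's rho of 0.938 over all kept libraries, a description in which both counts share the library and its depth. Members made up a median of 0.619% of the isogroups detected. The median number of process members detected was 9 in shallow and 7.5 in mesophotic colonies at CBC, 11 in both at PRTER, 22 and 11 at EFGB, and 28 and 21.5 at WFGB.

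**Figure D1:**
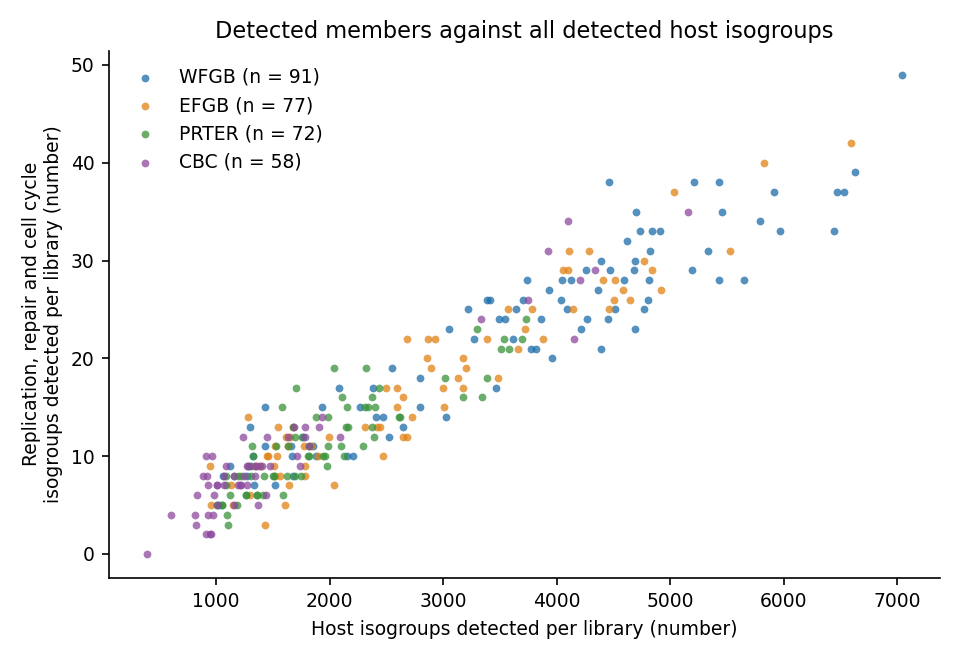
Process members detected (y axis, isogroups with at least 1 count of 94) against host isogroups detected (x axis, number) in each kept library, coloured by site. Libraries with more host isogroups detected had more members detected at every site, with r of 0.954 over all of them.

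The members' summed level had medians of 4271 CPM in mesophotic and 5145 CPM in shallow colonies at CBC. These were 2848 and 3391 CPM at PRTER, 3599 and 3158 CPM at EFGB, and 2988 and 3153 CPM at WFGB. Without the cyclin D member the medians were 2975 and 2210 CPM at CBC, 2113 and 2168 CPM at PRTER, 2644 and 2548 CPM at EFGB, and 2381 and 2887 CPM at WFGB. At CBC the shallow colonies thus stood above the mesophotic ones with cyclin D in the sum and under them without it.

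A few members were found in most libraries. The cyclin D member was absent from 4.70% of the kept libraries and had 30 or more counts in 61.4%. An isogroup named for the mitotic DNA replication checkpoint (Mcavernosa01637) was absent from 15.8%, and CDC37, a chaperone partner of cell cycle kinases, from 16.8%. Both were mostly thinly counted, with 30 or more counts in 3.36% and 2.68% of libraries. Cryptochrome 1 (Mcavernosa10901) had another distribution: 31.2% of libraries had none of it and 31.2% had 30 or more counts, with 12.1% in the range of 1 to 3. Uracil DNA glycosylase (42.6% of libraries at 0, 22.5% at 30 or more) and PCNA (54.4% and 17.8%) also had more libraries at 30 or more counts than at 1 to 3 (11.7% and 12.4%). APEX1 was at 0 in 47.99%, at 1 to 3 counts in 18.5% and at 30 or more in 17.4%. ERCC3, a helicase of the excision repair complex, was at 0 in 51.7% and reached 30 counts in none.

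**Figure D2:**
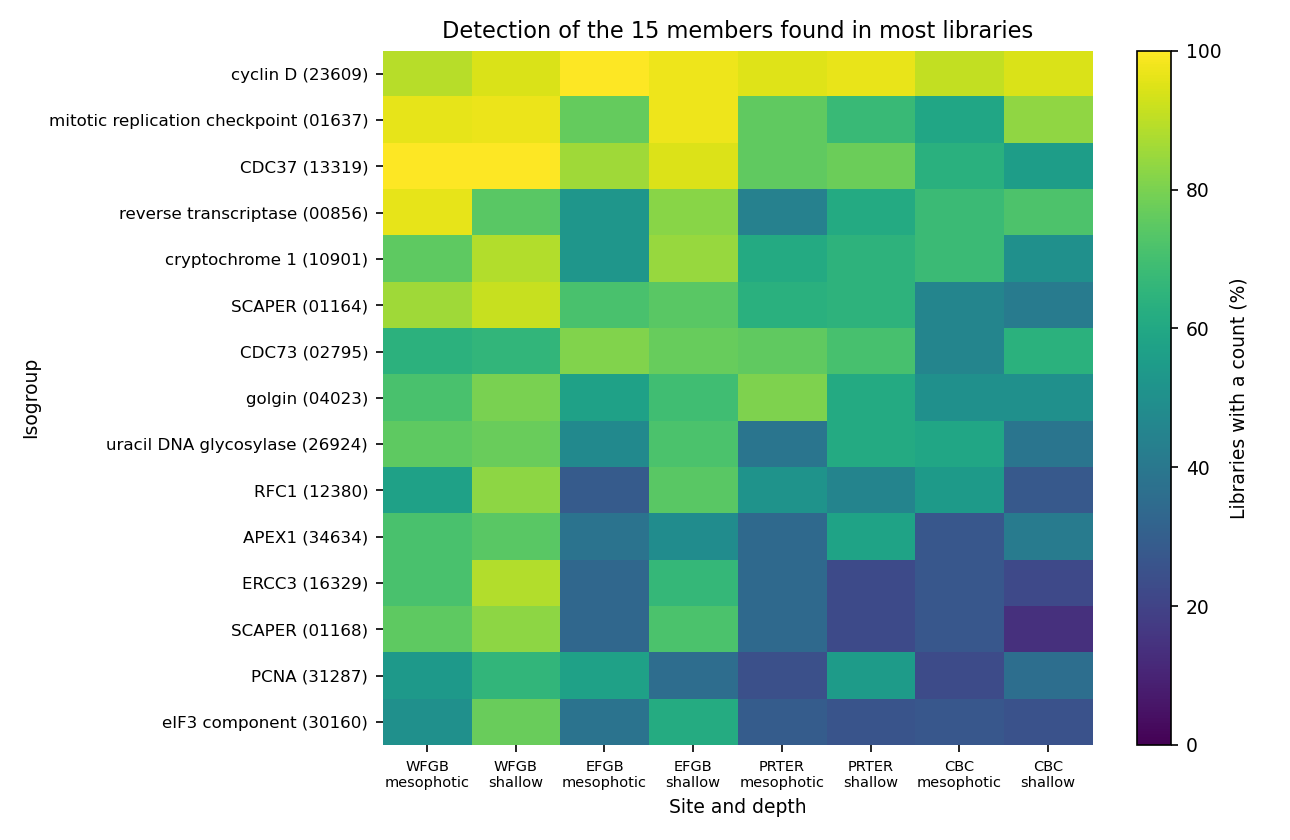
Percentage of libraries (colour scale, 0 to 100) in which each of the 15 members detected in the most libraries had at least 1 count, by site and depth. Cyclin D was detected in 89.3% to 100% of the libraries of every group, while RFC1 ranged from 27.8% in shallow colonies at CBC to 82.9% in shallow colonies at WFGB.

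Several of the other common members were detected in a smaller share of libraries at CBC than at WFGB. CDC37 was detected in 100% of libraries of both depths at WFGB and in 63.6% of mesophotic and 55.6% of shallow libraries at CBC. A SCAPER isogroup (Mcavernosa01164; SCAPER holds cyclin A outside the nucleus) went from 85.7% and 91.4% at WFGB to 45.5% and 41.7% at CBC, and ERCC3 from 71.4% and 88.6% to 27.3% and 22.2%. CDC73, a subunit of the PAF transcription complex, was detected more often at PRTER and EFGB than at WFGB, with shares in mesophotic and shallow libraries of 45.5% and 63.9% at CBC, 75.6% and 71.0% at PRTER, 81% and 76.9% at EFGB, and 64.3% and 65.7% at WFGB. The median number of isogroups detected was higher at WFGB than at CBC, as were the shares of CDC37, SCAPER and ERCC3. It was also higher at WFGB than at PRTER and EFGB at either depth, where the shares of CDC73 ran the other way. The part of this number in the shares was not tested.

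The design asks whether wild colonies of the 2 depths differ in expression and whether they do so alike at all sites. Of all members, 30 had enough counts for edgeR's quasi-likelihood test on counts (3703 host isogroups tested) and 48 were detected widely enough for limma on log2 CPM (6629 tested). All p-values were adjusted over all isogroups tested, and they judge a difference between groups against the spread between these libraries. Averaged over the 4 sites, edgeR called 5 members at adjusted p under 0.05, 1 higher and 4 lower in mesophotic colonies, against 15.9% of all isogroups tested. Limma called none, against 0.543% of all, with 12 members under an unadjusted p of 0.05, and DESeq2 called 3. The share of all isogroups is not given for DESeq2 or for unadjusted p, here and below. Counts of members by these measures therefore cannot be set against all isogroups. Process members were 4 of edgeR's 5. The members' median log2 difference (mesophotic minus shallow) in edgeR was −0.01, beside −0.09 for all isogroups tested.

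Site by site few members were called, and none at all 4 sites. At WFGB edgeR called none (2.75% of all) and limma none (0.573% of all), with 5 and 10 members under an unadjusted 0.05 and 1 member called by DESeq2. At EFGB edgeR called 5 members, 2 higher and 3 lower (8.75% of all), and limma called 14, 2 higher and 12 lower (16.4% of all, 15.9% of all lower). The members' median log2 difference there was −0.59 in limma beside −0.45 for all isogroups. Process members were 4 of edgeR's 5 and 11 of limma's 14 at EFGB. At PRTER edgeR called 5, all lower in mesophotic colonies (20.4% of all, 10.5% of all lower), and limma none (0.603% of all, 3 members unadjusted). Process members were 3 of the 5. At CBC edgeR called 7, 5 higher and 2 lower (28.3% of all), and limma none (0.241% of all, 3 members unadjusted). Members' medians in edgeR were 0.07, −0.31, 0.13 and 0.18 at WFGB, EFGB, PRTER and CBC, beside 0.05, −0.24, −0.07 and −0.26 for all. When each site was fitted alone, edgeR called no member at any of the 4 sites. The share of all isogroups called in these fits is not given.

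Whether the depth difference itself varied between the sites was tested over the 4 sites at once. EdgeR called 15 of the 30 members (43.2% of all), and limma called 6 of 48 (6.22% of all). Process members were 13 of edgeR's 15 and 4 of limma's 6. Of edgeR's 15 calls, 7 were lost when a single library was left out. Members passing both were the photolyase domain isogroup, CDC37 and TONSL. Entering the number of isogroups detected per library into limma as a covariate left no member called in any of the 15 comparisons. In edgeR the same covariate, an alternative chosen after seeing the data, kept 25 of 29 called differences. Those 29 leave out the test between sites.

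**Figure D3:**
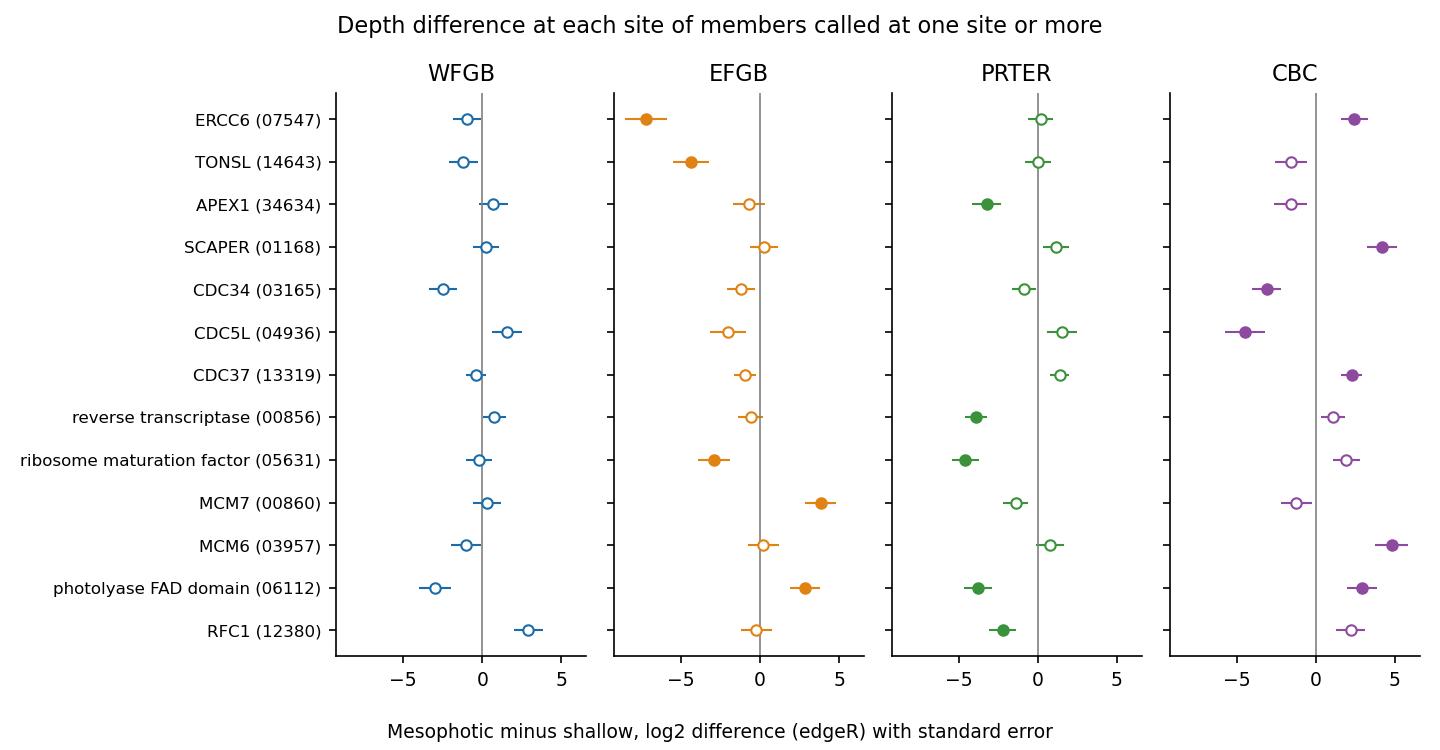
EdgeR log2 difference in level, mesophotic minus shallow (x axis), for the 13 members called at 1 or more of the sites (y axis), 1 panel per site. Bars are approximate standard errors, the absolute log2 difference over the square root of the F statistic. Filled points passed adjusted p 0.05. No member was called at all 4 sites, and the photolyase domain isogroup was called higher at EFGB and CBC and lower at PRTER.

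Of the cyclins and their partners, 4 could be tested in edgeR, which called 1 averaged over sites (15.9% of all isogroups) and 1 at CBC (28.3% of all). The cyclin D member (Mcavernosa23609), named as the regulatory part of the complex that phosphorylates RB at the entry into S phase, ranked 76 among all host isogroups by counts. At EFGB it was detected in 21 of 21 mesophotic colonies, at 248.8, 1315 and 4457 CPM, and in 38 of 39 shallow colonies, at 0, 404 and 5186 CPM. Mesophotic colonies thus centred higher but stayed inside the shallow range. Limma called it higher in mesophotic colonies there, by 1.71 ± 0.61 on the log2 scale (SE, adjusted p = 0.0409). EdgeR gave 1.34 ± 0.59 (adjusted p = 0.133) and did not call it. For edgeR the ± value, here and below, is an approximate standard error worked back from the F statistic. Mesophotic means were higher in all 5 barcode runs that held both depths at EFGB, by 0.53 to 3.84 log2 units. Without the X-14 libraries limma's difference was 1.48 (adjusted p = 0.505).

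Elsewhere cyclin D gave no call at single sites. At WFGB it stood at 0, 388 and 2983 CPM in mesophotic and 0, 276 and 3250 CPM in shallow colonies. PRTER had 0, 631 and 6012 CPM and 0, 624 and 5889 CPM, and CBC 0, 1028 and 5829 CPM and 0, 2491 and 11737 CPM. The 2 depths overlapped at each of these sites, and at CBC the highest shallow colonies lay above all mesophotic ones. The order of the medians at CBC was opposite to that at EFGB. The site dependence passed edgeR (adjusted p = 0.025) and was lost without 1 shallow CBC colony (adjusted p = 0.0810).

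**Figure D4:**
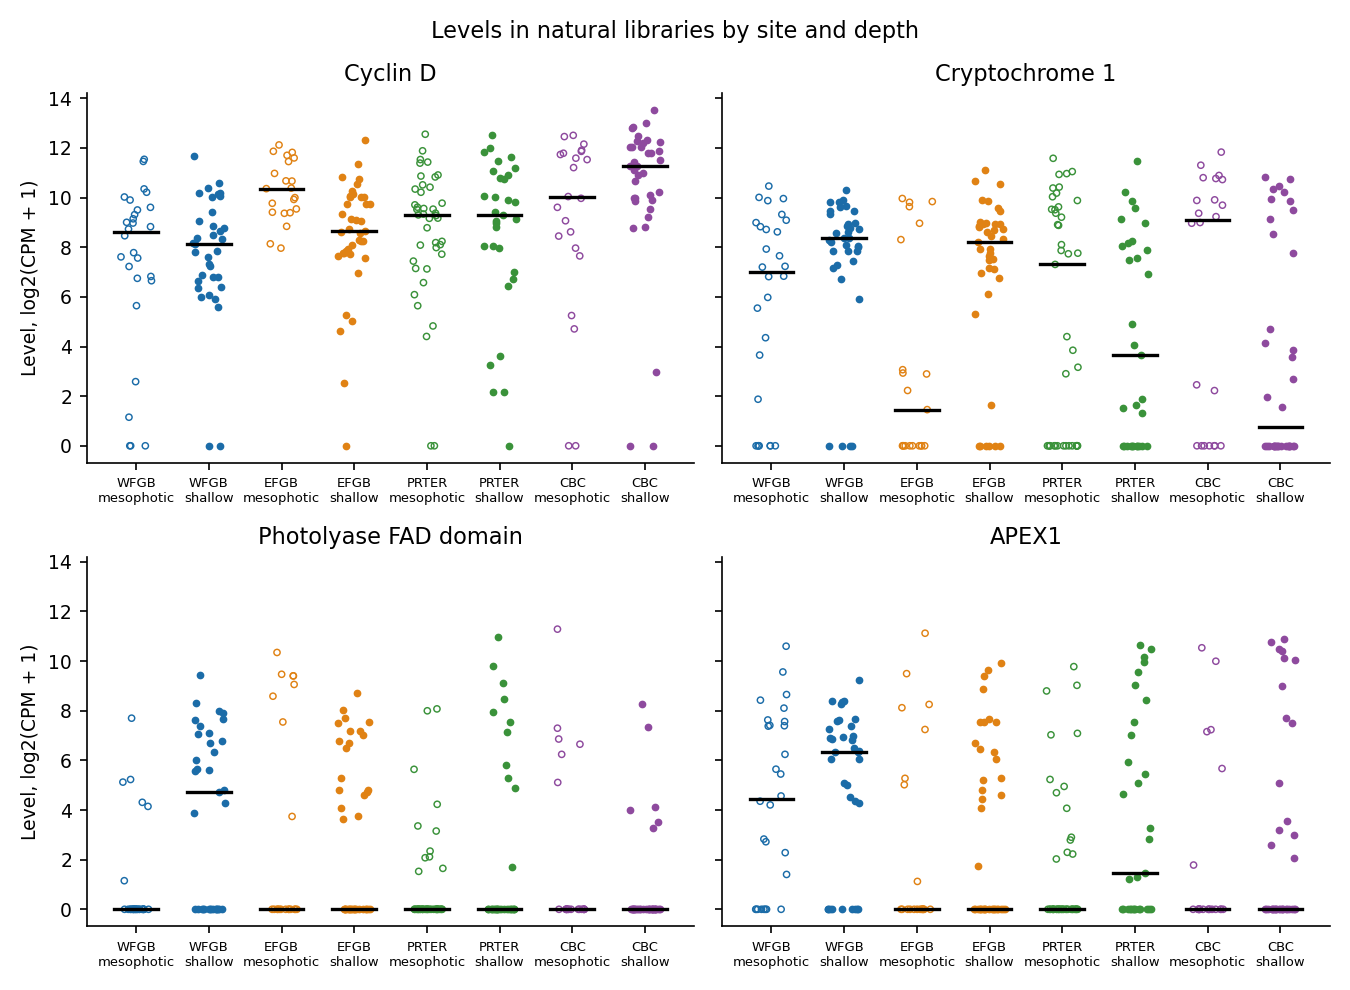
Level of cyclin D, cryptochrome 1, the photolyase domain isogroup and APEX1 in each wild-colony library (y axis, log2 of CPM plus 1) by site and depth (x axis, open for mesophotic, filled for shallow), with bars at the medians. Cyclin D is above 0 in nearly all libraries, while each of the other 3 has libraries at 0 and others above it in every group.

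A second SCAPER isogroup (Mcavernosa01168) was higher in mesophotic colonies averaged over sites (edgeR 1.46 ± 0.42, adjusted p = 0.00623) and at CBC (4.21 ± 0.93, adjusted p = 0.000151). At CBC it was detected in 6 of 22 mesophotic colonies, up to 1068 CPM, and in 5 of 36 shallow colonies, up to 132 CPM, with medians of 0. A single mesophotic colony decided the value: without it the log2 difference was 1.44 at CBC (adjusted p = 0.212) and 0.77 averaged (adjusted p = 0.193). At EFGB limma called the same isogroup lower in mesophotic colonies (−1.39, adjusted p = 0.0221), where it was found in 7 of 21 mesophotic and 28 of 39 shallow colonies. In limma the average over sites turned to −0.13.

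The S-phase and mitotic cyclins were sparse. Cyclin E1, which drives entry into S phase, was found in 18 of 35 shallow and 5 of 28 mesophotic colonies at WFGB, 14 of 39 and 3 of 21 at EFGB, 1 of 31 and 2 of 41 at PRTER, and 5 of 36 and 0 of 22 at CBC. Cyclin A2 was found in at most 3 libraries of any site and depth. Cyclin L1, a partner of splicing kinases, was at 0, 30.9 and 706 CPM in mesophotic and 0, 54.4 and 266.98 CPM in shallow colonies at WFGB, and its median was 0 in mesophotic colonies of the other 3 sites. A cyclin K isogroup, a partner of transcription kinases, was called lower in mesophotic colonies at EFGB by limma (−0.46, adjusted p = 0.0334).

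Among the 6 photolyases and cryptochromes was the member with the smallest adjusted p for a depth difference that varied between sites. An isogroup named for the FAD binding domain of DNA photolyase (Mcavernosa06112) was found at WFGB in 6 of 28 mesophotic colonies, up to 207.02 CPM, and in 20 of 35 shallow colonies, at 0, 25.5 and 690 CPM. At PRTER it was in 11 of 41 mesophotic colonies, up to 268.6 CPM, and 11 of 31 shallow colonies, up to 2010 CPM. At EFGB it was in 8 of 21 mesophotic colonies, up to 1303 CPM, and in 19 of 39 shallow colonies, up to 418 CPM. At CBC it was in 6 of 22 mesophotic colonies, up to 2500 CPM, and in 6 of 36 shallow colonies, up to 311.3 CPM. Shallow colonies were therefore more often positive at WFGB, PRTER and EFGB, and mesophotic colonies at CBC. The highest levels were in shallow colonies at WFGB and PRTER and in mesophotic colonies at EFGB and CBC.

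In edgeR the photolyase domain isogroup was lower in mesophotic colonies at PRTER (−3.79 ± 0.89, adjusted p = 0.000489) and higher at EFGB (2.82 ± 0.94, adjusted p = 0.0395) and CBC (2.93 ± 0.95, adjusted p = 0.0122). At WFGB it was −2.98 (adjusted p = 0.0800). The difference between sites passed in edgeR (adjusted p = 1.96e-07) and in limma (adjusted p = 0.0265). Within barcode runs the means differed by −1.21 and −0.75 log2 units in the 2 runs of PRTER and by −1.32 to 0.86 in the 5 runs of EFGB, where 4 were positive. At CBC 1 mesophotic colony decided the value, which was 0.17 without it (adjusted p = 0.918). With libraries of 2000 or more isogroups, the EFGB call held (2.65, adjusted p = 0.0429), and it was lost without the X-14 libraries (3.06, adjusted p = 0.279).

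Cryptochrome 1 showed a different order. At EFGB it was detected in 11 of 21 mesophotic colonies, at 0, 1.75 and 998 CPM, and in 33 of 39 shallow colonies, at 0, 298.45 and 2226 CPM. Limma called it lower in mesophotic colonies there (−2.38 ± 0.74, adjusted p = 0.0202), and the mesophotic mean was lower in all 5 runs, by 0.67 to 3.71 log2 units. At CBC the medians were 555 CPM in mesophotic and 0.960 CPM in shallow colonies, with 15 of 22 and 18 of 36 detected, and at PRTER they were 157.5 and 11.5 CPM. WFGB had 130 and 326 CPM. The difference between sites passed in limma (adjusted p = 0.00941) and not in edgeR. A second isogroup, named cryptochrome (Mcavernosa01532), had a median of 0 at every site and depth and highest levels of 427 to 1461 CPM. A second photolyase domain isogroup (Mcavernosa10851) had 16 counts in all, and in the wild colonies it was seen at WFGB and EFGB only.

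The replicative helicase was covered by few counts. Of its 6 subunits, MCM7 had 1784 counts in 58 libraries and MCM6 1684 in 53, MCM2 had 180 counts in 92 libraries and MCM4 126 in 26, and the 2 MCM3 isogroups had 7 and 17 counts. No member with counts was assigned to MCM5. MCM7 was detected at EFGB in 7 of 21 mesophotic colonies, up to 566 CPM, and in 5 of 39 shallow colonies, up to 76.1 CPM. It was called higher in mesophotic colonies there by edgeR (3.83 ± 0.96, adjusted p = 0.00377) and limma (1.10 ± 0.39, adjusted p = 0.0369), and edgeR kept the call without the X-14 libraries (5.48, adjusted p = 0.0296). DESeq2 did not call it (adjusted p = 0.0995), nor did limma with the number of isogroups detected as covariate (adjusted p = 0.302). At WFGB 8 of 28 and 12 of 35 colonies had it, up to 318.9 and 317.3 CPM, and the difference between sites passed edgeR (adjusted p = 0.00118). MCM6 was called higher in mesophotic colonies at CBC (edgeR 4.83 ± 1.04, adjusted p = 0.00011), where 3 of 22 mesophotic and 3 of 36 shallow colonies had any. Without the mesophotic colony at 1808 CPM its difference was 0.16 (adjusted p = 0.935).

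Of the isogroups grouped under the replicative helicase and its licensing, 10 were in the lookup table without counts, among them those of MCM8, MCM9, CDC6, CDC7 and DNA2. CDC45, which joins the helicase to the moving fork, had 7 and 214 counts in 2 isogroups. Large MCM3-associated proteins, which are named for MCM3 and act in mRNA export as well had 2300 counts in the larger of 2 isogroups.

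The clamp and its loader held most of the counts of the replication machine. All 5 replication factor C subunits were present, RFC1 with 4236 counts, RFC5 with 1271 in 49 libraries, RFC4 with 629 in 18, RFC3 in 5 libraries and RFC2 with 4 counts in 2. DNA polymerase members had 20, 14 and 1 counts and the DNA ligase member had 1, which is too few for any comparison. PCNA, the sliding clamp (Mcavernosa31287), was found at PRTER in 10 of 41 mesophotic colonies, at 0, 0 and 738 CPM, and in 17 of 31 shallow colonies, at 0, 8.59 and 789 CPM. At EFGB the order was opposite, with 12 of 21 mesophotic colonies at 0, 24.9 and 991 CPM and 14 of 39 shallow colonies at 0, 0 and 459 CPM. No single site was called, and the difference between sites passed edgeR (adjusted p = 0.0188).

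RFC1 was detected in 16 of 28 mesophotic and 29 of 35 shallow colonies at WFGB, at 0, 26.6 and 1771 CPM and 0, 78.8 and 298.9 CPM, and in 6 of 21 and 29 of 39 at EFGB, with medians of 0 and 20.4 CPM. At PRTER edgeR called it lower in mesophotic colonies (−2.22 ± 0.84, adjusted p = 0.0429), but limma gave 0.065 and libraries of 100000 or more host counts gave 1.49, in the opposite direction. RFC5 was in none of the 21 mesophotic colonies and in 10 of 39 shallow colonies at EFGB, and limma called it lower there (−0.79, adjusted p = 0.0434).

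Of the 26 DNA repair members, 7 could be tested in edgeR, which called 0 higher and 2 lower in mesophotic colonies averaged over sites (members' median log2 difference −0.87), against 15.9% of all isogroups. At EFGB it called 2 lower (8.75% of all), at PRTER 1 lower (20.4% of all) and at CBC 1 higher (28.3% of all). ERCC6 (Mcavernosa07547), which couples repair to stalled transcription, was found at WFGB in 10 of 28 mesophotic and 25 of 35 shallow colonies, up to 83.9 and 163 CPM. At EFGB it was in 3 of 21 mesophotic colonies, up to 37.8 CPM, and in 19 of 39 shallow colonies, up to 1391 CPM. CBC had it in 4 of 22 and 4 of 36, up to 120 and 43.98 CPM. EdgeR called it lower in mesophotic colonies at EFGB (−7.19 ± 1.32, adjusted p = 4.97e-05), as did limma (−1.07 ± 0.33, adjusted p = 0.0191), and higher at CBC (2.46 ± 0.84, adjusted p = 0.0179). A single shallow EFGB colony held 884 of the isogroup's counts, and without it the EFGB difference was −2.98 (adjusted p = 0.0250). Averaged over sites the difference was −1.38 ± 0.51 (adjusted p = 0.0459). It was −0.32 (adjusted p = 0.969) without the same colony, and leaving out either of 2 mesophotic CBC colonies also ended the call (adjusted p = 0.0505 in both). Sites differed in edgeR (adjusted p = 1.44e-06).

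TONSL (Mcavernosa14643), which marks newly copied chromatin for repair of broken forks, was in 7 of 28 mesophotic and 24 of 35 shallow colonies at WFGB, with medians of 0 and 50.97 CPM. At EFGB 1 of 21 mesophotic and 14 of 39 shallow colonies had it, up to 7.14 and 259.2 CPM, while at PRTER 13 of 41 mesophotic and 3 of 31 shallow colonies had it, and at CBC 6 of 22 and 4 of 36. It was lower in mesophotic colonies averaged over sites (edgeR −1.78 ± 0.45, adjusted p = 0.00192) and at EFGB (−4.36 ± 1.11, adjusted p = 0.00423). The difference between sites passed in edgeR (adjusted p = 0.0224) and limma (adjusted p = 0.0240). Among libraries with 2000 or more isogroups the average turned to 0.37.

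APEX1 (Mcavernosa34634), the endonuclease that cuts the strand where a base was removed, was the DNA repair member with the most counts (14033). At PRTER it was in 14 of 41 mesophotic colonies, at 0, 0 and 877 CPM, and in 18 of 31 shallow colonies, at 0, 1.75 and 1620 CPM. EdgeR called it lower in mesophotic colonies (−3.24 ± 0.90, adjusted p = 0.00376), as did DESeq2 (adjusted p = 0.000328). Limma gave −1.22 (adjusted p = 0.460), and the means differed by −0.66 and −1.71 within the 2 barcode runs. Uracil DNA glycosylase, the enzyme that takes uracil out of DNA ahead of APEX1, had medians of 75.1 and 0 CPM at CBC, 0 and 4.67 CPM at PRTER, 0 and 163 CPM at EFGB, and 351 and 247.8 CPM at WFGB in mesophotic and shallow colonies, and no depth comparison called it.

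ERCC3, found in 7 of 21 mesophotic and 26 of 39 shallow colonies at EFGB with medians of 0 and 24.0 CPM, was called lower in mesophotic colonies by limma (−0.999, adjusted p = 0.0264). ERCC1, part of the nuclease that cuts on one side of the lesion, was in none of 21 and in 12 of 39 (limma −0.67, adjusted p = 0.0421). An isogroup named for the ERCC family with no group number (Mcavernosa07480) was in 6 of 21 and 25 of 39 (limma −0.82, adjusted p = 0.0324). No member carried a mismatch repair name. All of these calls at EFGB were lost in limma without the X-14 libraries, where no member was called.

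Division cycle proteins gave calls at CBC and in the average over sites. CDC34 (Mcavernosa03165), the ubiquitin-conjugating enzyme of the SCF complex, was found in 16 of 35 shallow and 5 of 28 mesophotic colonies at WFGB, 12 of 39 and 1 of 21 at EFGB, 2 of 31 and 3 of 41 at PRTER, and 3 of 36 and 1 of 22 at CBC. It was lower in mesophotic colonies averaged over sites (edgeR −1.91 ± 0.42, adjusted p = 0.000301). At CBC the call (−3.08 ± 0.91, adjusted p = 0.00515) was lost without 1 shallow colony (−1.07, adjusted p = 0.224). A second CDC34 isogroup (Mcavernosa03167) is a close namesake, and reads could be split between the 2. CDC5L (Mcavernosa04936), a spliceosome protein named for a yeast division gene, was in 3 of 22 mesophotic colonies at CBC, up to 184.1 CPM, and in 7 of 36 shallow colonies, up to 1850 CPM (edgeR −4.46 ± 1.28, adjusted p = 0.00415). CDC37 (Mcavernosa13319) at CBC had medians of 8.66 and 3.35 CPM and highest levels of 1140 and 224 CPM. Its call as higher in mesophotic colonies (2.28 ± 0.66, adjusted p = 0.00449) rested on 1 colony, without which it was 0.50 (adjusted p = 0.621).

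The checkpoint isogroup Mcavernosa01637 was at 0, 4.29 and 794 CPM in mesophotic and 0, 190 and 663 CPM in shallow colonies at EFGB, and at 0, 126 and 628 CPM and 0, 241.9 and 590 CPM at WFGB. Shallow medians were thus higher at both sites with wide overlap. Limma called it lower in mesophotic colonies at EFGB (−1.54, adjusted p = 0.0207). CDC73 had a called difference between sites (edgeR adjusted p = 0.0322), lost without 1 shallow WFGB colony (adjusted p = 0.136), and no call at any single site.

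Of the members that entered by letters, 5 could be tested in edgeR, and 2 were called in 1 or more depth comparisons. A ribosome maturation factor (Mcavernosa05631, entered through the word recycling) was lower in mesophotic colonies averaged over sites (edgeR −1.44 ± 0.45, adjusted p = 0.0147), at EFGB (−2.91 ± 1.01, adjusted p = 0.0492, with limma at adjusted p = 0.0108) and at PRTER (−4.57 ± 0.85, adjusted p = 5.54e-06). The average was −0.63 (adjusted p = 0.304) without 1 shallow PRTER colony. A reverse transcriptase (Mcavernosa00856) was lower at PRTER (−3.91 ± 0.72, adjusted p = 4.59e-06). Both PRTER values rested on that colony, without which they were −1.34 (adjusted p = 0.178) and −0.87 (adjusted p = 0.362). Limma also called the reverse transcriptase (−0.97, adjusted p = 0.0401) and heme oxygenase 1 (−0.91, adjusted p = 0.0187) lower in mesophotic colonies at EFGB. A golgin isogroup, a tether of the Golgi, passed limma's test between sites alone (adjusted p = 0.0494).

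EFGB and WFGB are the pair of sites that shared barcode runs and the experiment, and their levels were compared over both depths. EdgeR called 3 members, 1 higher and 2 lower at EFGB (7.32% of all). Limma called 12, 1 higher and 11 lower (25.7% of all, 25.3% of all lower), with a members' median log2 difference of −0.36 beside −0.34 for all. Process members were 3 of edgeR's 3 and 9 of limma's 12. TONSL was lower at EFGB in both tools (edgeR −2.85 ± 0.68, adjusted p = 0.00282, limma −1.001, adjusted p = 0.00652). RFC1 was too (edgeR −2.13 ± 0.69, adjusted p = 0.0381, limma −0.98, adjusted p = 0.0230), but the edgeR value was −0.84 (adjusted p = 0.457) without 1 mesophotic WFGB colony and −2.12 (adjusted p = 0.0535) without 1 shallow EFGB colony. The photolyase domain isogroup was higher at EFGB in edgeR (2.15 ± 0.68, adjusted p = 0.0325). Between the X-14 shallow libraries of the 2 sites alone, with no mesophotic colonies compared, its difference was −0.028. Cyclin D was the 1 member that limma called higher at EFGB (1.53, adjusted p = 0.00523, edgeR 1.15 at adjusted p = 0.0683). ERCC3 was among those called lower (−0.86, adjusted p = 0.00369).

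In the transplant experiment few members passed. At time 6, edgeR called no member between transplants and mesophotic controls (1.9% of all) or shallow controls (2.43% of all), with 5 members under an unadjusted 0.05 in each and 2 and 3 called by DESeq2. Limma called none in either (0% and 0% of all, 1 member unadjusted in each). The time 6 transplants included the 2 with the tag IX-16, while the controls all had V-16. At time 12 edgeR called none against mesophotic controls (0.112% of all, 10 members unadjusted, 3 by DESeq2) and 2 against shallow controls, both lower (8.3% of all, 6.09% of all lower). Limma called none in either (0.014% and 0.014% of all, 8 and 3 members unadjusted). Both time 12 comparisons share the same 5 transplants, and those had a median of 1633 host isogroups detected, beside 4096 in mesophotic and 3221 in shallow controls. Median host counts were 390284 in these transplants, 49206 in mesophotic and 116697 in shallow controls. Members' median log2 differences at time 12 were −2.39 against mesophotic and −1.80 against shallow controls, beside −0.07 and −0.30 for all isogroups tested.

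The 2 members called at time 12 had no count in any transplant. TONSL was at 0 in all 5 transplants, and 5 of 9 shallow controls had it, at 0, 14.5 and 648 CPM, from 145 counts. EdgeR gave adjusted p = 0.0473 (limma 0.599). CDC20 (Mcavernosa25447), which activates the anaphase-promoting complex, was at 0 in all 5 transplants, and 3 of 9 shallow controls had it, up to 290 CPM, from 86 counts, at edgeR adjusted p = 0.0459 (limma 0.667). Positive and zero libraries thus overlapped in both, and each call was lost when any of several single libraries was left out, at edgeR adjusted p up to 0.085. Of mesophotic controls 3 of 6 and 2 of 6 had TONSL and CDC20.

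Some other members had low levels in the time 12 transplants that edgeR and limma did not call. RFC1 was seen in 2 of 5 transplants, up to 2.74 CPM, beside medians of 51.3 and 55.3 CPM in mesophotic and shallow controls, and DESeq2 called it lower than in shallow controls (adjusted p = 0.00763). CDC37 was at 0, 5.49 and 10.2 CPM in transplants, at 17.6, 55.6 and 127 CPM in mesophotic controls and at 0, 31 and 190 CPM in shallow controls. The transplants lay wholly under the mesophotic controls in these libraries, at edgeR adjusted p = 0.305 and DESeq2 adjusted p = 0.0415. DESeq2 also called CDC37 lower than in shallow controls (adjusted p = 0.0423). The checkpoint isogroup was at 13.7, 17.8 and 42.1 CPM in transplants and at 17.6, 214 and 397 CPM in mesophotic and 0, 391 and 1080 CPM in shallow controls, against which DESeq2 called it lower (adjusted p = 0.0100). Not all members were low. APEX1 was found in 5 of 5 transplants at 2.56, 231.2 and 637 CPM and in 2 of 6 mesophotic and 4 of 9 shallow controls, both with medians of 0 (edgeR adjusted p = 0.111 against mesophotic controls). Others, among them PCNA, CDC73 and the photolyase domain isogroup, also had edgeR differences above 0 against both control arms, and edgeR did not call them.

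Through time, cyclin D was called higher in shallow controls at time 6 than at baseline. It was at 31.9, 218 and 404 CPM at baseline, at 146, 1191 and 4271 CPM at time 6, and at 206.7, 565 and 2950 CPM at time 12. At time 6, 8 of 10 libraries lay above the highest baseline library, and the level was higher than at baseline in 8 of 9 colonies sampled at both times and lower at time 12 than at time 6 in 7 of 9. From baseline to time 6, edgeR called 2 members in shallow controls (3.97% of all), cyclin D among them (3.21 ± 0.97 on the log2 scale, adjusted p = 0.0375), and limma none (1.19% of all, 9 members unadjusted). Limma gave 2.36 for cyclin D (adjusted p = 0.139) and DESeq2 adjusted p = 1.75e-06. With colony as a block the edgeR difference was 2.94 (adjusted p = 0.150), and no member was called. Without the shallow control at the highest level it was 2.64 (adjusted p = 0.105), and leaving out any of 6 others gave adjusted p between 0.0501 and 0.0660. Time 6 libraries of shallow controls had a median of 1485 isogroups detected against 3383 at baseline, and median host counts of 309230 against 52005. With the number of isogroups detected in the edgeR fit the cyclin D difference was 1.93 (adjusted p = 0.214).

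**Figure D5:**
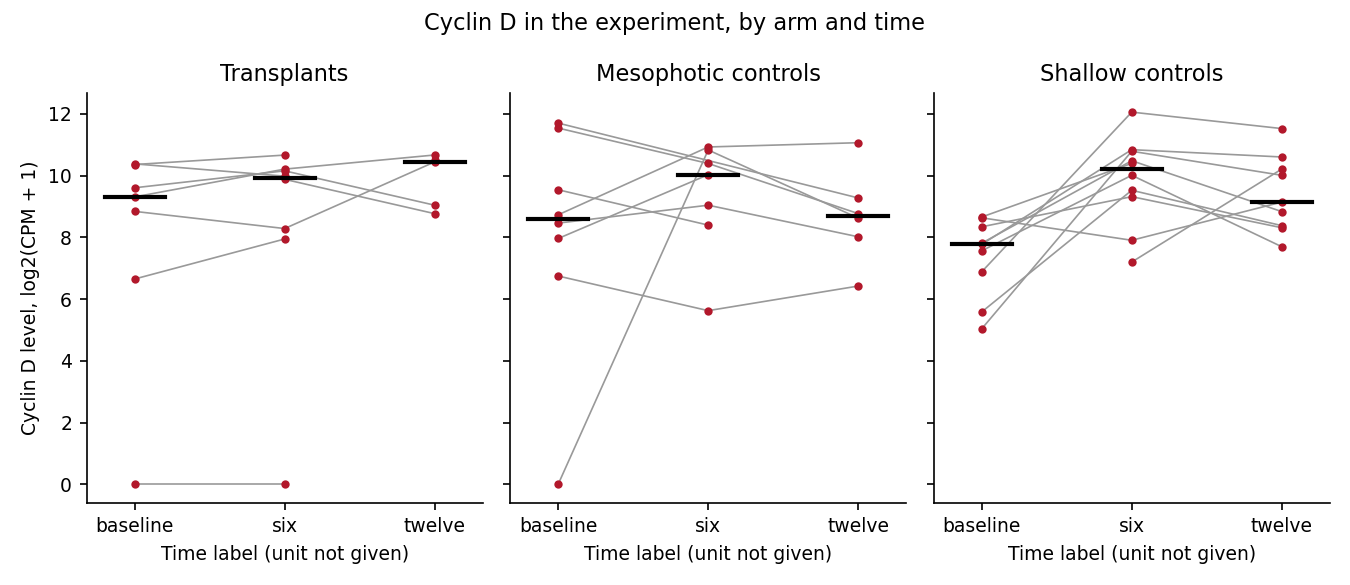
Cyclin D level (y axis, log2 of CPM plus 1) in each library of the 3 arms at baseline, time 6 and time 12 (x axis), with lines joining libraries of 1 colony and bars at the medians. In shallow controls the median went from 218 to 1191 and 565 CPM, with baseline and time 6 libraries overlapping in part, and in mesophotic controls from 388 to 1046 and 415 CPM.

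In the other arms no tool called cyclin D between baseline and time 6. Transplants were at 0, 635 and 1334 CPM at baseline, at 0, 977 and 1626 CPM at time 6 and at 435, 1394 and 1629 CPM at time 12, and 4 of 7 colonies were higher at time 6 than at baseline. Mesophotic controls were at 0, 388 and 3336 CPM, then 48.4, 1046 and 1951 CPM, then 84.8, 415 and 2147 CPM, also with 4 of 7 colonies higher at time 6. From baseline to time 6 the edgeR differences were 0.66 ± 1.00 (adjusted p = 0.868) and 0.29 ± 0.99 (adjusted p = 0.960). Whether the arms differed in this change was not tested. No member was called from baseline to time 6 in transplants (edgeR 0% and limma 0% of all, with 8 and 9 members under an unadjusted 0.05 and 3 called by DESeq2) or mesophotic controls (edgeR 0% and limma 0% of all, 3 and 1 members, 1 by DESeq2). Neither edgeR, limma nor DESeq2 called cyclin D between transplants and either control arm at time 6 or 12, with edgeR differences between −1.03 and 1.38 and adjusted p of 0.432 to 0.857.

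The second member called in shallow controls was CDC34, which 4 of 9 baseline libraries had, up to 189 CPM from 20 counts, and none of the 10 libraries at time 6 (edgeR adjusted p = 0.0165, limma 0.103). PCNA was found in 3 of 9 baseline and 7 of 10 time 6 shallow controls, with medians of 0 and 496 CPM (edgeR 3.58 ± 1.63, adjusted p = 0.173). The second cryptochrome isogroup (Mcavernosa01532) was in 1 of 7 transplants at baseline and 6 of 8 at time 6, with medians of 0 and 235 CPM (edgeR 6.61 ± 2.22, adjusted p = 0.141, DESeq2 adjusted p = 0.00312). In shallow controls it was in 2 of 9 and 8 of 10, with medians of 0 and 29.6 CPM (edgeR adjusted p = 0.152, DESeq2 0.0440). Between times 6 and 12 over the 3 arms, edgeR called no member (9.05% of all, 5 unadjusted, 2 by DESeq2) and limma none (0.0838% of all, 3 unadjusted). Cryptochrome 1 was at medians of 276, 277.4 and 0 CPM at time 6 and 329, 904 and 799 CPM at time 12 in transplants, mesophotic and shallow controls (edgeR 2.18 ± 0.85, adjusted p = 0.0814).

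Other genes of these pathways, gathered by name from the rest of the host table, are given by list. Of 31 cell cycle kinases and their inhibitors, 5 were tested in edgeR in the wild colonies, and 0 were higher and 1 lower in mesophotic colonies averaged over sites (median −0.72). One cyclin-dependent kinase (Mcavernosa22155) was lower at EFGB than at WFGB in edgeR (−2.25 ± 0.68, adjusted p = 0.0232) and limma (adjusted p = 0.0028). Of 75 strand break and crosslink repair isogroups 13 were tested, with 0 called averaged over sites (median 0.20), 2 higher at PRTER (20.4% of all isogroups called) and 4 higher and 2 lower at CBC (28.3% of all), and RAD54-like 2, a chromatin remodeller, had the most counts (28730 in 235 libraries). Of 51 mitosis and chromosome segregation isogroups 4 were tested, with 1 higher and 1 lower (median 0.69), and a structural maintenance of chromosomes isogroup led with 2449 counts. Of 23 cell cycle transcription and checkpoint isogroups 8 were tested, with 1 higher and 1 lower (median 0.07), led by p53 inducible nuclear protein 1 with 5436 counts. Of 16 origin and fork isogroups and 9 base damage repair enzymes 1 each was tested and none called. DNA primase, which starts each new strand, had 2888 counts in the first and alkB homolog 5, a demethylase of RNA, 20176 in the second. All of these medians stand beside −0.09 for all isogroups, and the counts averaged over sites beside 15.9% of all called.

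Markers of other tissue parts moved with some of the same groups. Averaged over sites, edgeR called 0 higher and 4 lower in mesophotic colonies among 6 gland and mucus cell isogroups tested, and 2 higher and 2 lower among 15 germ line isogroups, against 15.9% of all isogroups. Summed over 40 gland and mucus cell isogroups, the median level was 840 and 2977 CPM in mesophotic and shallow colonies at PRTER and 821 and 2984 CPM at CBC, but 1067 and 890 CPM at WFGB and 1031 and 929 CPM at EFGB. Summed over 58 germ line isogroups, whose cells divide and repair DNA in meiosis, medians ran from 3186 to 5359 CPM over the 8 wild groups, and in shallow controls they were 5204 CPM at baseline and 1744 CPM at time 6. The 2 nematocyte isogroups had a median of 0 in every group. The symbiont's share of counts had medians of 20.1% and 10.8% in mesophotic and shallow colonies at PRTER. In transplants at time 12 its median was 0.550%, with a range of 0.403% to 13.8%. Medians were 11.1% and 8.71% in mesophotic and shallow controls at time 12, and 10.9% in transplants at baseline. The part of these differences in the members' levels was not tested.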

How the data were processed

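The authors deposited a table of whole-number counts per isogroup and library, which is raw by its values, and a lookup table of isogroup names. The aligner is not given in the sources used here, and the same holds for read filters, removal of duplicates and strand in counting. Count columns were matched to samples by their labels, and 1 further column that matched no sample was not used. Members, pathway lists (base damage repair enzymes, cell cycle kinases, cell cycle transcription and checkpoint, mitosis and chromosome segregation, origin and fork proteins, strand break and crosslink repair) and markers (germ line, gland and mucus cells, nematocytes) were found by words in the names, and they were chosen with earlier results of these data known.

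Host counts were analysed in libraries with at least 20000 of them. The main test was edgeR 4.0.16 in R 4.3.3 (robust quasi-likelihood, TMM scaling, filter on low counts by group), with Benjamini-Hochberg adjustment over all host isogroups tested. Its standard errors were taken as the absolute log2 difference over the square root of the F statistic. For some members they do not match the p-value. Wild colonies were fitted as 8 groups in 253 libraries, and the experiment as arm by time plus site in 69 libraries. Limma 3.58.1 (log2 CPM, prior count 2, isogroups detected in at least 10% of libraries) and DESeq2 1.42.0 were alternatives. Scripts were tested on simulated data. Named with values were members past adjusted p 0.05 in edgeR or limma (at most 12 a comparison), the leading members of each role and the 15 detected most often. Beyond that rule, cyclins E1 and A2, the second cryptochrome and photolyase isogroups, PCNA and CDC37 in the experiment, and the subunits of the MCM and replication factor C complexes were named after their values were seen. Figures used matplotlib 3.10.9.

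The experiment's groups were sampled from the same colonies over time, known from the colony tags in the titles. The main fit treated libraries of 1 colony as independent. Deviations of libraries of 1 colony at different times correlated with r from −0.07 to 0.32 (median 0.06, 58 pairs), against a median of 0.01 between other colonies. A fit with colony as a replicate block (68 libraries of 26 colonies) was an alternative. Nothing in the labels says that libraries of a group came from separate extractions.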

Additional observations from a re-analysis of the deposited data

Results flagged for a closer look

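Single libraries stood far from the rest of their group in 10 of 54 small experiment groups examined. Chance flags about 1 in 20 groups of normally distributed values, but these levels are skewed and come from the same libraries, so their own chance rate is not known and the number shows no excess. For cyclin D the highest shallow control was at 4271 CPM at time 6 (the next at 1836) and at 2950 CPM at time 12 (1558), and the highest mesophotic control at time 12 was at 2147 CPM (620). For the checkpoint isogroup the highest was at 794 CPM in transplants at baseline (the next at 274.5), at 431 CPM in mesophotic controls at time 6 (121) and at 42.1 CPM in transplants at time 12 (17.9). For CDC37 the highest at time 6 was at 195 CPM in transplants (43.9), 439 CPM in mesophotic controls (95.8) and 184.2 CPM in shallow controls (95.5). For PCNA the highest shallow control at time 12 was at 216.996 CPM (77.1).

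The difference between depths varied between the 4 sites in edgeR's test for 15 members. The adjusted p was 1.96e-07 for the photolyase domain isogroup, 1.44e-06 for ERCC6, 7.29e-06 for the ribosome maturation factor, 2.33e-05 for the reverse transcriptase, 0.000712 for RFC1, 0.00102 for CDC5L, 0.00118 for MCM7 and 0.00164 for MCM6. It was 0.00694 for CDC37, 0.0125 for SCAPER, 0.0188 for PCNA, 0.0224 for TONSL, 0.025 for cyclin D, 0.0322 for CDC73 and 0.0468 for APEX1. Leaving out in turn each of 12 libraries that held the most counts of a member, 7 of the 15 were lost without 1 of them, at adjusted p up to 0.160 for the reverse transcriptase, 0.693 for SCAPER, 0.136 for CDC73, 0.633 for MCM6, 0.0986 for CDC37, 0.0810 for cyclin D and 0.152 for APEX1. The other 8 passed in each of these fits.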

How the results depend on the processing

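Counts of members called depended strongly on the processing. Shares of all isogroups called are given above for the main edgeR fit and for limma without covariate only. The counts under other settings describe members alone. In wild colonies edgeR called 5, 0, 5, 5, 7, 15 and 3 members (depth averaged over sites, at WFGB, EFGB, PRTER and CBC, depth by site, and EFGB against WFGB). In that order DESeq2 called 3, 1, 4, 2, 6, 6 and 3, RLE scaling 2, 0, 3, 4, 6, 10 and 1, a filter on detection alone 11, 1, 14, 10, 14, 24 and 10, and libraries of at least 100000 host counts 2, 0, 5, 4, 8, 8 and 6. Limma called 0, 0, 14, 0, 0, 6 and 12, and 0 in all with the number of isogroups detected as a covariate. Without the X-14 libraries edgeR called 1, 0, 2, 4, 5, 7 and 1. A barcode run covariate gave 5, 0, 4, 4, 8, 13 and 2. Fitting a site alone gave 0 at each site.

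Alternatives chosen after seeing the data were libraries of at least 2000 isogroups (1, 0, 5, 3, 1, 5 and 1), the number of isogroups detected as an edgeR covariate (10, 2, 5, 5, 11, 15 and 4), library sizes over all host isogroups (3, 0, 3, 4, 7, 13 and 1), limma without X-14 (0, 0, 0, 0, 0, 0 and 6), X-14 shallow libraries only (0 for EFGB against WFGB), and leaving out the library with the most counts of a member. The last gave 4 to 5, 0 to 1, 5 to 5, 3 to 5, 6 to 8, 13 to 15 and 2 to 4. Each fit left out a single library, so these ranges do not add up losses from different libraries. At CBC the calls of SCAPER, CDC34, MCM6, the photolyase domain isogroup and CDC37 were each lost in some fit. At PRTER those of the reverse transcriptase and the ribosome maturation factor were.

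In the experiment edgeR called 0, 0, 0, 2 and 0 members (transplants against mesophotic and shallow controls at time 6, then at time 12, and time 12 against 6) and 0, 0 and 2 from baseline to time 6 in transplants, mesophotic and shallow controls. DESeq2 called 2, 3, 3, 5, 2, 3, 1 and 2, the detection filter 5, 2, 0, 8, 3, 2, 2 and 2, the edgeR covariate 4, 1, 1, 2, 3, 0, 0 and 0, and RLE scaling 0, 0, 2, 2, 0, 0, 0 and 2. Limma with or without the covariate, and libraries of at least 2000 isogroups, called 0 in each. Leaving out 1 library gave 0 to 2, 0 to 3, 0 to 0, 0 to 2, 0 to 2, 0 to 1, 0 to 0 and 0 to 5. With colony as a replicate block, the 4 comparisons through time had 0 calls, so the 2 calls from baseline to time 6 in shallow controls were lost. The comparisons between arms were not run with the block, since each colony was in 1 arm. Libraries of at least 100000 host counts were not run, since no transplant baseline had that many.

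Of members' called differences, 6 of 17 were lost under DESeq2, 9 of 29 under RLE scaling, 22 of 29 under limma and 17 of 25 in libraries of at least 2000 isogroups. The number of isogroups detected as an edgeR covariate lost 4 of 29, and the filter on detection alone 1 of 29. Directions reversed for SCAPER averaged over sites (−0.25 with 2000 isogroups, −0.13 in limma), TONSL averaged over sites (0.37 with 2000), RFC1 at PRTER (1.49 with 100000 host counts, 0.63 with 2000 isogroups, 0.065 in limma), RFC1 between EFGB and WFGB (0.31 with 2000) and the photolyase domain isogroup between them (−0.028 in X-14 shallow libraries only). The X-14 value of the photolyase domain isogroup compares shallow colonies alone, whereas its main value is a mean over both depths. The cause of these changes was not tested. Most members were at 0 in most libraries, and how far sequencing depth sets this was not tested.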
